A study of Mus musculus with 16 samples.

Results

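The hippocampus of mice without a working Bgn gene was compared with that of wild-type mice, both drinking regular water, in 8 RNA-seq libraries out of the 16 of the series. The labels describe male C57BL/6 mice that were wild type (WT, 4 libraries) or carried a Bgn knockout given as Bgn0/- (BgnKO, 4 libraries). They drank regular water for 6 weeks, starting at 3 months of age. The other 8 libraries came from mice of the same 2 genotypes that drank 15% fructose (w/v) for the same time, and they serve here as a second set of BgnKO and WT samples. The libraries were chosen by their labels alone, and all 22572 gene names of the deposited table were taken, of which 12648 averaged 1 FPKM or more across the 16 libraries and were tested. FPKM counts sequenced fragments per kilobase of a transcript, relative to the fragments of the library. The labels number the libraries of a group from 1 to 4 without saying that each came from a separate animal, so the p-values reflect only how these libraries vary, which may be technical. They name no substrain and do not say whether WT mice were littermates of the knockouts. The effect of the Bgn allele and any other difference between the 2 sets of mice cannot be told apart.

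Biglycan, the product of the X-linked gene Bgn, is a small leucine-rich proteoglycan that is secreted into the extracellular matrix. It binds collagen fibrils, holds growth factors of the TGF-beta and BMP family near the cell surface, and when shed from the matrix can act as a ligand of the Toll-like receptors Tlr2 and Tlr4. In the brain its messenger RNA is mainly a product of meningeal and vascular cells and of some glia. The hippocampus is a memory-forming structure whose neurons respond to activity by switching on immediate early genes such as Fos and Egr1.

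Depth is not recorded in FPKM, so no counting interval is given. Between 12474 and 12655 named genes reached 1 FPKM in each water library. Replicate 1 stood apart in both water groups, with root mean square log2 differences of 0.302 to 0.378 from the other replicates of its group, against 0.179 to 0.268 among replicates 2 to 4. Excitatory neuron markers such as Slc17a7 and Camk2a were abundant. Transthyretin (Ttr), the defining transcript of choroid plexus, ranged from 2457 to 5957 FPKM in WT and from 770.4 to 6127 FPKM in BgnKO, so it varied widely within both groups. In tissue of mixed cells, fewer cells of a type and less RNA per cell cannot be told apart.

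Bgn itself was lower in the knockout but was not absent. Its 2 loci in the table summed to 9.94, 11.7, 17.7 and 24.2 FPKM in WT and 4.46, 7.23, 7.19 and 7.6 FPKM in BgnKO. Every BgnKO library lay below every WT library, and the WT libraries spread more widely than the knockouts. The means were 15.9 ± 6.47 FPKM in WT and 6.62 ± 1.45 FPKM in BgnKO (SD, n = 4 each), so 41.7% of the WT level remained. The difference reached the smallest p that 4 libraries against 4 allow in a 2-sided exact permutation test (p = 0.0286). In the limma fit across all genes it was not called (log2 fold -1.09, SE 0.34, limma adjusted p = 0.37). Its limma adjusted p was 0.0193 with a term for replicate 1, 0.0166 with replicates 2 to 4 only and 0.0444 with the mean levels of choroid plexus, meninges and astrocyte markers (marker scores) as covariates, and it lay above 0.05 without any 1 water library. Of the 2 loci, the more abundant had 9.03 ± 3.11 FPKM in WT and 3.85 ± 0.195 FPKM in BgnKO. The other locus had 6.86 ± 3.59 and 2.77 ± 1.28 FPKM, with overlapping groups (exact permutation p = 0.114). On fructose the summed loci had 5.42, 20.7, 21.2 and 17.2 FPKM in WT and 5.02, 6.69, 6.73 and 7.11 FPKM in BgnKO. There WT replicate 1 lay within the BgnKO range (exact permutation p = 0.114, limma adjusted p = 0.0869). The labels do not say which exons the allele removes, so whether the remaining signal comes from them cannot be read from these values.

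Genes beside Bgn on the X chromosome differed little. Bgn lies at chrX:73483602-73495933 (mm10, plus strand), and 36 other tested genes lie within 1 Mb of it. Their log2 folds ran from -0.15 to 0.44 with a median of -0.01, with 16 higher and 20 lower. Only Pnck, a calcium/calmodulin-dependent kinase whose start lies 172 kb from that of Bgn, was called, 1 of the 36 beside 0.387% of all tested genes. It had 41.1, 37, 38.4 and 39.4 FPKM in WT and 49.2, 50.8, 56.2 and 56.8 FPKM in BgnKO. All 4 BgnKO libraries exceeded all 4 WT libraries (log2 fold 0.44, SE 0.08, limma adjusted p = 0.016), though without any 1 of 5 of the libraries Pnck was no longer called.

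Across the hippocampus 49 genes were called at an adjusted p under 0.05 (limma on log2(FPKM + 1), Benjamini-Hochberg), which is 0.387% of the 12648 tested. The number was 30 without WT replicate 2 or without WT replicate 4, 31 without BgnKO replicate 3, 32 without BgnKO replicate 2, 26 with a filter of 5 FPKM, and 126 with a term for replicate 1. Of the 49, 22 rose (0.174%) and 27 fell (0.213%) in BgnKO. The median log2 fold of all tested genes was -0.001 and the 95th percentile of its size was 0.26, so most genes moved little. The called genes had log2 folds of 0.31 or more in size, and 12 passed a log2 fold of 1 in size, 6 in each direction. In 507 tested genes (4.01%) the FPKM ranges of the 2 groups did not overlap, and all 49 called genes were among them. A standard name is carried by 42 of the called genes, and the other 7 have Gm or Rik names, which are counted only. The fold changes understate the change of low genes, since 1 FPKM is added to each value.

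**Figure D1:**
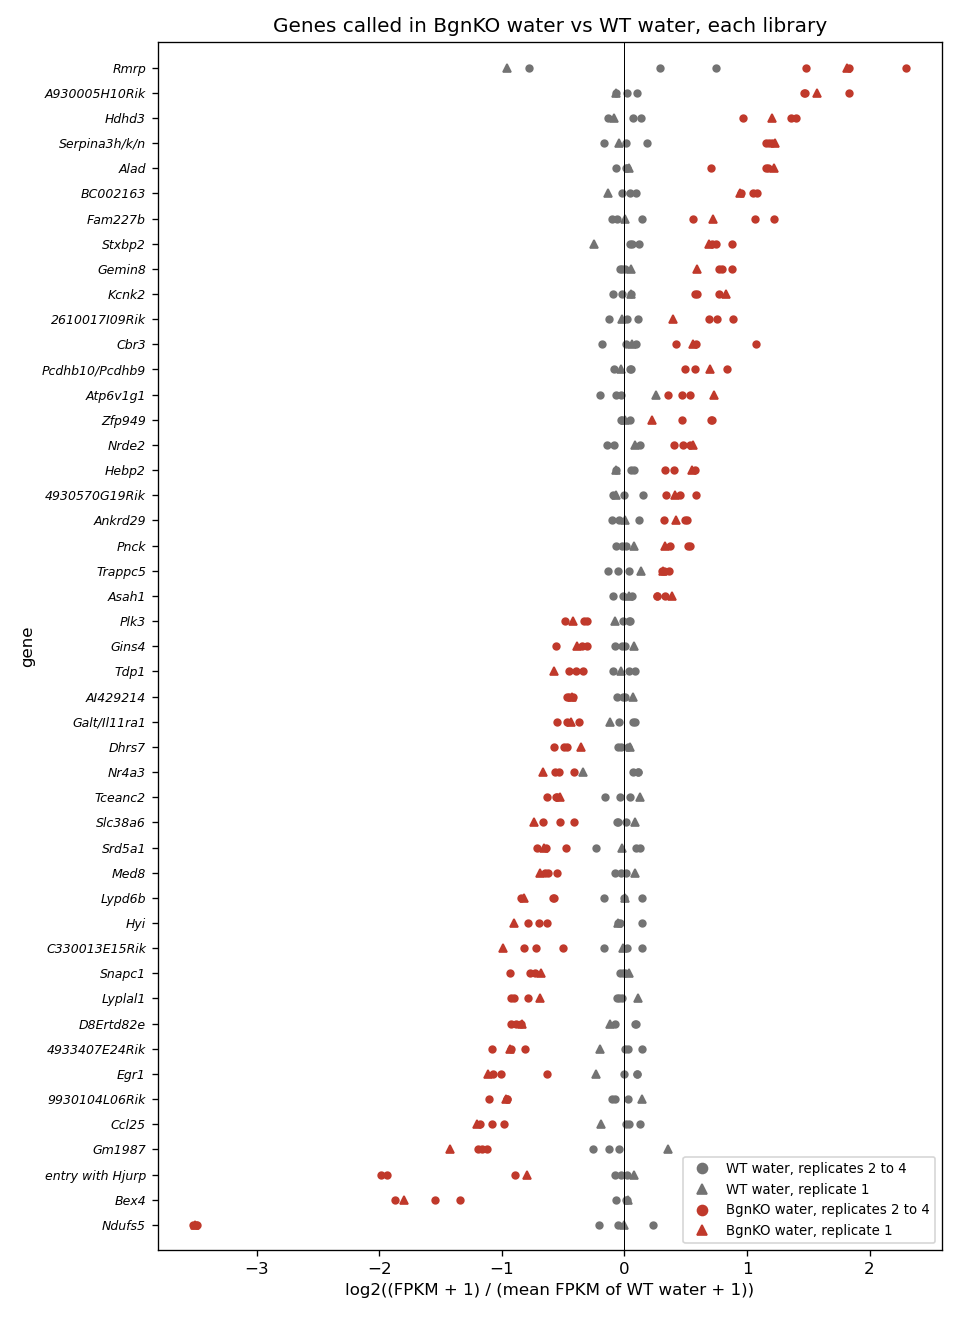
Each line is a gene called on water, without Rn45s, which is listed at 0 in BgnKO, and 1 gene that is not reported here. The x axis is log2 of (FPKM + 1) relative to the mean of the WT water libraries. Grey marks are WT and red marks BgnKO libraries, with triangles for replicate 1, and no red mark overlaps the grey range of its gene.

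Apart from Rn45s, the called gene with the largest fold was Ndufs5, which encodes a subunit of mitochondrial complex I. It had 11.5, 11, 13.7 and 9.82 FPKM in WT and 0.106, 0.0928, 0.107 and 0.118 FPKM in BgnKO (log2 fold -3.49, SE 0.10, limma adjusted p = 2.64e-12), so that 0.922% of the WT mean remained and the highest BgnKO library was far under the lowest WT library. The gene lies at chr4:123712710-123718202 on the minus strand. In the opposite direction, BC002163 on chromosome 16 (chr16:42955631-42955949, plus strand), annotated as a processed pseudogene, had 99.6, 117, 113 and 108 FPKM in WT and 211, 213, 233 and 228 FPKM in BgnKO (log2 fold 1.01, SE 0.07, limma adjusted p = 3.77e-07). It is a near-identical copy of the Ndufs5 coding sequence. Of 318 aligned bases 316 were the same (99.4%), and 80.97% of the 31-base words of BC002163 also occur in Ndufs5 transcripts. The reverse share was smaller. Of the Ndufs5 words, 26.47% occur in BC002163, and the rest occur in no other gene. The first 240 bases of both are shown because their near identity bears on how fragments of the 2 genes can be assigned. The transcripts are from GENCODE vM21 (GRCm38), written 5′ to 3′, with the differing bases in capitals.
Ndufs5: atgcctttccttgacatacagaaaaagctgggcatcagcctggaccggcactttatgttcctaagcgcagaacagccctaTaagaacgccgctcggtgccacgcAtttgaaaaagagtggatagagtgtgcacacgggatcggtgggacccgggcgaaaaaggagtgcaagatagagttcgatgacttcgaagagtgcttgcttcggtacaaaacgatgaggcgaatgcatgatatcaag
BC002163: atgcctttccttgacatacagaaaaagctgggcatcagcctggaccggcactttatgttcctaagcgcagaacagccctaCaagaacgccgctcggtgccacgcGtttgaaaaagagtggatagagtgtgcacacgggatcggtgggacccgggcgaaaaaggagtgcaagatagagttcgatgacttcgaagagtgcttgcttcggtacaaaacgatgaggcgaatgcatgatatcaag
Counted from 1 at the first base of the coding sequence, with the base of Ndufs5 first, the differences are T81C and A105G. Both values are therefore uncertain, since the authors' counting could move fragments from one gene to the other, and this was not tested. Other members of the complex I list did not follow Ndufs5. Of its 43 tested members 30 were higher and 13 lower, with a median log2 fold of 0.03 beside -0.001 over all tested genes. Ndufs5 alone was called, which is 2.33% of the list beside 0.387% of all genes. The lists here and below were drawn up with earlier results of these data known. Their shares of called genes are therefore not independent evidence. Ndufs6, also a complex I subunit, had 22.4, 24.5, 25.6 and 22.9 FPKM in WT and 20.7, 20.3, 19.1 and 22.3 FPKM in BgnKO (log2 fold -0.20, SE 0.08, limma adjusted p = 0.743).

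Rn45s, the ribosomal RNA precursor, also separated the groups. It is listed at 655, 386, 668 and 869 FPKM in the WT libraries and at 0 in all 4 BgnKO libraries, and it is listed at 0 in all 4 BgnKO libraries on fructose too. An exact 0 in such a table can be a failed estimate, so no fold is given. Rmrp, the RNA of the RNase MRP complex, was higher in BgnKO. It had 1.43, 1.77, 4.8 and 6.96 FPKM in WT and 15.7, 12.2, 15.9 and 22.4 FPKM in BgnKO (log2 fold 2.03, SE 0.39, limma adjusted p = 0.0339), so the WT libraries differed widely among themselves while all BgnKO libraries were higher, and 37.45% of its 31-base words occur elsewhere. Rmrp lost its call without any 1 of 6 of the 8 libraries. Among 14 tested noncoding RNAs of processing, 10 were higher and 4 lower. Rpph1, not called, had 3.37 to 7.04 FPKM in WT and 5.53 to 28.7 FPKM in BgnKO (log2 fold 1.18, SE 0.35, limma adjusted p = 0.312). The libraries were enriched for polyadenylated RNA with fragments of 200 to 400 bp. How this affects Rn45s and such short noncoding RNAs was not tested.

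Next in size among the lower genes was Bex4, a small brain-expressed X-linked protein. It had 14.8, 13.8, 14.7 and 14.6 FPKM in WT and 3.46, 4.3, 5.09 and 3.23 FPKM in BgnKO (log2 fold -1.64, SE 0.12, limma adjusted p = 1.4e-06), and 59.9% of its 31-base words occur in other transcripts. The other 10 tested genes of the Bex and Tceal family were not called. Ccl25, a chemokine, had 6.06, 7.84, 7.15 and 7.28 FPKM in WT and 2.51, 2.83, 3.08 and 2.58 FPKM in BgnKO (log2 fold -1.11, SE 0.09, limma adjusted p = 5.55e-06), with 38.8% of the WT mean left. Of the 9 tested chemokines and their receptors it was the only one called (11.1% of the list, beside 0.387% of all tested genes). This share is not independent evidence either. An entry that joins 2 Rik names with Hjurp, a histone chaperone of the centromere, had 10.9, 10.4, 10.02 and 9.69 FPKM in WT and 5.49, 1.94, 1.84 and 5.05 FPKM in BgnKO (log2 fold -1.40, SE 0.29, limma adjusted p = 0.0471). The BgnKO replicates 1 and 4 were well above replicates 2 and 3, and the call was lost in 12 of 21 alternative settings.

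D8Ertd82e, Lyplal1 and Snapc1 kept between 50.8% (Lyplal1) and 55.4% (Snapc1) of the WT mean. D8Ertd82e had 19, 19.7, 22.1 and 22.2 FPKM in WT and 11.2, 10.5, 11.1 and 10.8 FPKM in BgnKO (log2 fold -0.87, SE 0.07, limma adjusted p = 6.45e-06). Lyplal1, a lysophospholipase-like protein, had 8.25, 7.3, 7.44 and 7.21 FPKM in WT and 4.29, 3.57, 3.96 and 3.51 FPKM in BgnKO (log2 fold -0.82, SE 0.07, limma adjusted p = 3.89e-06). Both stayed called in every setting that tested them. Snapc1, a subunit of the complex that starts transcription of small nuclear RNAs, had 14.3, 13.9, 13.7 and 13.5 FPKM in WT and 8.26, 7.73, 7.98 and 6.78 FPKM in BgnKO (log2 fold -0.78, SE 0.08, limma adjusted p = 7.17e-05). In none of these 3 genes did the groups come close to each other.

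Hyi, a hydroxypyruvate isomerase that the annotation calls a polymorphic pseudogene, had 2.36, 2.84, 2.36 and 2.4 FPKM in WT and 0.87, 1.15, 1.25 and 1.03 FPKM in BgnKO (log2 fold -0.75, SE 0.14, limma adjusted p = 0.0198). Lypd6b, a Ly6-family protein that modulates nicotinic receptors, had 3.51, 3, 3.95 and 3.47 FPKM in WT and 1.54, 1.99, 2.02 and 1.5 FPKM in BgnKO (log2 fold -0.70, SE 0.11, limma adjusted p = 0.00434). The Mediator subunit Med8 had 10.3, 9.08, 9.41 and 9.75 FPKM in WT and 5.59, 6.25, 5.9 and 5.8 FPKM in BgnKO (log2 fold -0.63, SE 0.06, limma adjusted p = 1.1e-05). The groups did not overlap in any of the 3, and for Lypd6b the WT spread was about as wide as the gap between the groups. Srd5a1, which reduces testosterone and progesterone to neurosteroid precursors, had 5.28, 5.81, 5.94 and 4.4 FPKM in WT and 3.04, 3.57, 3.07 and 2.89 FPKM in BgnKO (log2 fold -0.61, SE 0.11, limma adjusted p = 0.0153). Slc38a6, a member of an amino acid transporter family, had 1.7, 1.46, 1.57 and 1.43 FPKM in WT and 0.528, 0.917, 0.606 and 0.765 FPKM in BgnKO (log2 fold -0.58, SE 0.09, limma adjusted p = 0.00444), with 40.7% of its words found in other genes. Hyi lost its call in 7 settings and Srd5a1 in 5.

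Lower genes of smaller size came from several pathways. Tceanc2 had a log2 fold of -0.56, the dehydrogenase Dhrs7 -0.47, the entry of Galt and Il11ra1 -0.45, AI429214 -0.44, the DNA repair enzyme Tdp1 -0.44, and the replication subunit Gins4 -0.40, all called in the limma fit. Galt makes uridine diphosphate galactose, Il11ra1 is the interleukin 11 receptor, and 47.9% of the words of this entry occur elsewhere. The Galt and Il11ra1 entry lost its call in 12 of 21 settings, among them leaving out any 1 water library, Tdp1 lost it in 5, Gins4 in 3 and Dhrs7 in 2. Egr1, Nr4a3 and Plk3 are described with the activity-induced genes below.

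Among the genes that rose, a neighbouring pair on chromosome 4 stood out. Hdhd3, a phosphatase-like protein, had 3.48, 3.34, 4.22 and 4.01 FPKM in WT and 9.99, 11.6, 8.3 and 11.2 FPKM in BgnKO (log2 fold 1.24, SE 0.14, limma adjusted p = 0.000157). Alad, which makes porphobilinogen in the second step of heme synthesis, had 5.11, 4.67, 5.07 and 5 FPKM in WT and 12.9, 12.3, 8.74 and 12.4 FPKM in BgnKO (log2 fold 1.06, SE 0.13, limma adjusted p = 0.000628). BgnKO replicate 3 was the lowest of its group for both genes and still exceeded every WT library. Alad was the only called member of the 16 tested genes of heme synthesis and breakdown (6.25% of the list, beside 0.387% of all tested genes). This list too was drawn up with earlier results known. Of the 16, 9 were higher and 7 lower. Atp6v1g1, a subunit of the vacuolar proton pump about 1 Mb away, had 38.6, 31.4, 30.7 and 27.9 FPKM in WT and 53.9, 41.4, 47 and 45 FPKM in BgnKO (log2 fold 0.53, SE 0.11, limma adjusted p = 0.0471). Here the highest WT library came close to the lowest BgnKO library, and the call was lost in 11 of 21 settings, among them leaving out any 1 water library except WT replicate 1.

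The entry of Serpina3h, Serpina3k and Serpina3n, of the serpin family of protease inhibitors, had 31.7, 29.1, 33.1 and 37.4 FPKM in WT and 78.1, 74.3, 75.5 and 77.1 FPKM in BgnKO (log2 fold 1.20, SE 0.10, limma adjusted p = 7.61e-06). The BgnKO libraries lay close together, with a mean of 232% of WT. These genes are listed as a joint entry, so which of them rose cannot be read from its values. Of its words, 25.6% occur in other transcripts. Kcnk2, a two-pore potassium channel of the TREK type, had 8.59, 7.68, 8.12 and 8.57 FPKM in WT and 15.4, 12.8, 12.9 and 14.8 FPKM in BgnKO (log2 fold 0.69, SE 0.08, limma adjusted p = 0.000113). It was the only one of 8 tested two-pore channels that was called (12.5% of the list, beside 0.387% of all tested genes). That list was also drawn up with earlier results known, so its share is not independent evidence.

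Gemin8, a part of the SMN complex that assembles spliceosomal particles, had 4.14, 3.98, 3.9 and 3.84 FPKM in WT and 6.46, 8.1, 7.5 and 7.6 FPKM in BgnKO (log2 fold 0.76, SE 0.12, limma adjusted p = 0.00939). With the lower Snapc1 it makes 2 called genes among 14 tested genes of the SMN complex and of snRNA transcription. This is 14.3% of the list, beside 0.387% of all tested genes, and 8 members were higher and 6 lower. The list was drawn up with earlier results of these data known, so this share is not independent evidence. Stxbp2, which guides vesicle fusion with syntaxins, had 2.45, 3.23, 3.29 and 3.47 FPKM in WT and 5.65, 5.9, 5.74 and 6.55 FPKM in BgnKO (log2 fold 0.76, SE 0.11, limma adjusted p = 0.00176). In both genes the lowest BgnKO library lay well over the highest WT library. Fam227b had 0.436, 0.373, 0.584 and 0.33 FPKM in WT and 1.36, 1.11, 2 and 2.33 FPKM in BgnKO (log2 fold 0.90, SE 0.18, limma adjusted p = 0.0397), and its WT libraries were all below 1 FPKM. Cbr3, a carbonyl reductase, had 6.43, 6.61, 6.22 and 5.29 FPKM in WT and 9.51, 8.53, 9.71 and 14 FPKM in BgnKO (log2 fold 0.66, SE 0.13, limma adjusted p = 0.0471). Replicate 4 of BgnKO was far over the others for Cbr3, and both Fam227b and Cbr3 lost their call in 12 or more of the alternative settings.

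The entry of the clustered protocadherins Pcdhb10 and Pcdhb9, cell adhesion proteins that give neurons surface identity, had 3.99, 4.27, 3.8 and 4.25 FPKM in WT and 7.25, 8.09, 6.17 and 6.59 FPKM in BgnKO (log2 fold 0.65, SE 0.09, limma adjusted p = 0.00199). The zinc finger gene Zfp949 had 5.23, 5.1, 5.07 and 5.4 FPKM in WT and 6.24, 9.09, 7.59 and 9.15 FPKM in BgnKO (log2 fold 0.53, SE 0.10, limma adjusted p = 0.0406). Nrde2, which acts in RNA processing, had 4.42, 4.57, 3.8 and 3.61 FPKM in WT and 6.53, 5.77, 6.11 and 6.38 FPKM in BgnKO (log2 fold 0.50, SE 0.10, limma adjusted p = 0.0471). The BgnKO range was wide for Zfp949 and narrow for Nrde2. Zfp949 lost its call in 10 of 21 settings and Nrde2 in 11, which for Nrde2 include leaving out any 1 water library. Hebp2, a heme-binding protein, had 0.932, 1.11, 1.14 and 0.94 FPKM in WT and 1.98, 1.68, 2.03 and 1.56 FPKM in BgnKO (log2 fold 0.47, SE 0.08, limma adjusted p = 0.0145). Called with smaller folds were Ankrd29 (log2 fold 0.44), the vesicle transport subunit Trappc5 (0.33) and the acid ceramidase Asah1 (0.31). Ankrd29 lost its call in 5 of 21 settings, Trappc5 in 10 and Asah1 in 12, and Asah1 did so without any 1 water library. Hebp2 lost its call in 6 of 20.

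The called genes were not spread evenly over the genome. Of the 47 with a position, 13 lie on chromosome 4 (1.63% of its 798 tested genes), 7 on chromosome 8 (1.05% of 668) and 7 on chromosome 12 (1.52% of 460). These 3 chromosomes were picked after the positions were seen. Together they held 57.4% of the called genes and 15.3% of the tested genes, and 8 chromosomes, Y among them, held none. Over 21 other settings their share of the calls was 45.2 to 62.1%. On fructose, 5.40% of their tested genes were called against 3.42% of those on all other chromosomes. No test was made of either.

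**Figure D2:**
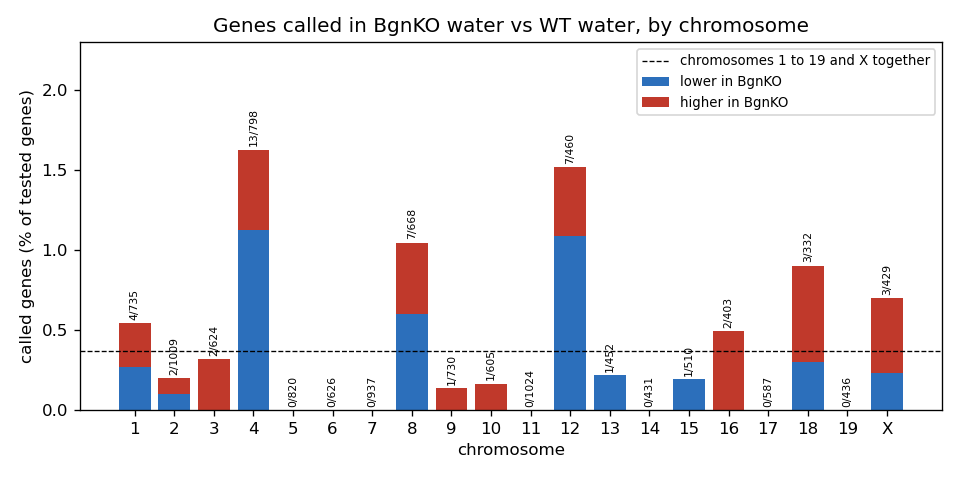
Bars give the percentage of tested genes on each chromosome that were called in BgnKO against WT on water, stacked by direction (blue lower, red higher in BgnKO). The number over each bar is called over tested genes, and the dashed line is the share over chromosomes 1 to 19 and X. Chromosomes 4, 12 and 8 stand highest.

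Many of the called genes lie near each other. Joining called genes on 1 chromosome with gaps of at most 10 Mb gives 9 runs that hold 30 of the called genes and 2.54% of the tested genes. The gap was chosen with the positions known. Each run begins and ends at a called gene, so its share of called genes is high by construction. The longest run, 17.8 Mb of chromosome 4, holds 7 called genes among 139 tested (5.04%). All 7 were lower: Tceanc2, Plk3, Hyi, Med8, Ndufs5 and 2 Rik genes. A run of 0.729 Mb on chromosome 8 has Stxbp2 and Trappc5 higher and Ccl25 lower. Runs on chromosome 12 hold Dhrs7, Slc38a6 and Snapc1, all lower, and a group in mixed directions that includes Tdp1, which fell, and Nrde2 and the Serpina3 entry, which rose. Tested genes within 1 Mb of a called gene that were not called themselves numbered 534. Of these, 13.9% had an unadjusted p under 0.05, against 5.33% of all tested genes.

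The fructose libraries give a second reading of the same genotype contrast in other samples. Both contrasts came from 1 fit over 16 libraries with a shared estimate of the spread, so their calls are not independent. With the 8 water libraries alone, 35 of the 49 water genes stayed called. On fructose 475 genes were called (3.76% of those tested), and 42 of the 49 water genes were among them, all in the same direction. With scores of choroid plexus, meninges and astrocyte markers as covariates, 15 of the 49 were called on fructose in the same direction. All 49 had the same sign, and in 43 the fructose groups did not overlap. Ndufs5 had log2 folds of -3.49 on water and -3.67 on fructose, Bex4 -1.64 and -1.82, Alad 1.06 and 0.92, and Kcnk2 0.69 and 0.68. The 7 genes not called on fructose were Hyi, Lypd6b, Srd5a1, Nrde2, Zfp949, the Galt and Il11ra1 entry and 1 Rik gene. Lypd6b fell by 0.70 on water and had -0.22 on fructose, and Fam227b rose by 0.90 and 1.46. These 2 were the only called genes with an unadjusted interaction p under 0.05, and none had an adjusted one. Over all genes the limma interaction of genotype and drink called 1 gene (0.00791%), Camk2a, which is listed at 0 in all 4 WT fructose libraries. This interaction rests on those exact 0s, which can be failed estimates.

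**Figure D3:**
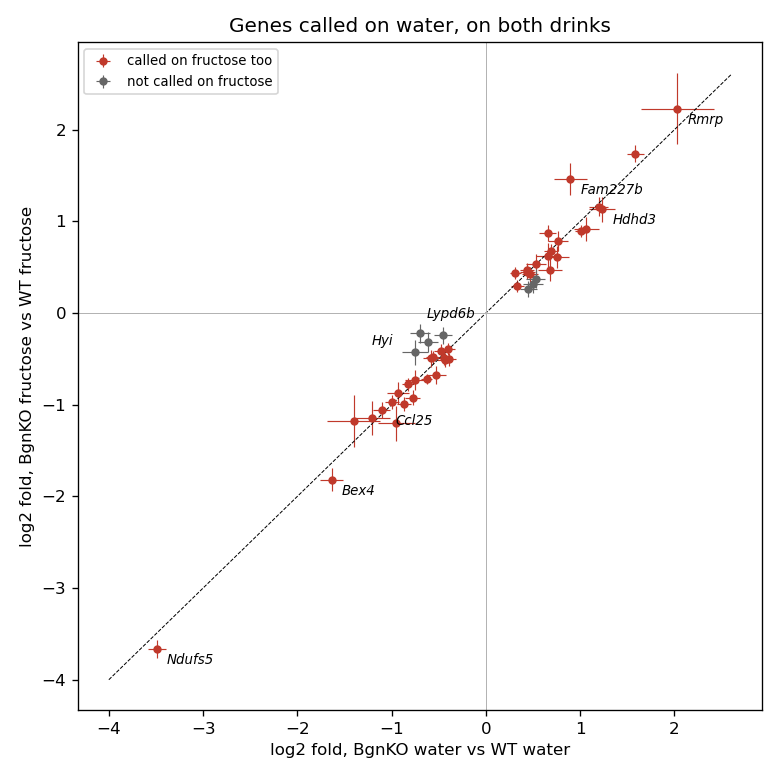
Each point is a gene of the plot by library, with its log2 fold on water (x axis) and on fructose (y axis), and bars are the standard errors. The dashed line marks equal folds. Red points were called on fructose too and lie along the line, and grey points were not called there.

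Genes of cholesterol synthesis were lower together by small amounts. All 23 tested members had a negative log2 fold, with a median of -0.21 beside -0.001 over all tested genes. None was called (0% of the list, beside 0.387% of all tested genes). An unadjusted p under 0.05 was found for 12, beside 5.33% of all tested genes, and in 8 the groups did not overlap, beside 4.01% of all. Their FPKM summed to 396 to 460 in WT and 348 to 390 in BgnKO. Stard4, which carries sterols between membranes, had 6.98, 5.34, 5.89 and 4.4 FPKM in WT and 3.54, 3.26, 3.42 and 4.3 FPKM in BgnKO (log2 fold -0.51, SE 0.13, limma adjusted p = 0.137). Fdps, farnesyl diphosphate synthase, had 3.9, 3.64, 3.24 and 3.13 FPKM in WT and 2.36, 2.61, 2.99 and 2.35 FPKM in BgnKO (log2 fold -0.32, SE 0.08, limma adjusted p = 0.152). The groups did not overlap in either. Fdft1, squalene synthase, had 29.3, 26.6, 30.9 and 27.9 FPKM in WT and 24.7, 22.5, 23.3 and 23.2 FPKM in BgnKO (log2 fold -0.28, SE 0.08, limma adjusted p = 0.27), and Hmgcs1, which makes the precursor of mevalonate, had 99, 81.9, 87.9 and 76.9 FPKM in WT and 77.7, 66, 70.3 and 65.7 FPKM in BgnKO (log2 fold -0.30, SE 0.09, limma adjusted p = 0.285). Fdft1 separated the groups, while the highest BgnKO library for Hmgcs1 lay above the lowest WT library. The list median stayed between -0.23 and -0.17 in the other settings. On fructose 16 of the 23 were lower (median -0.15). Genes of cholesterol uptake and export were evenly split, 11 higher and 11 lower.

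Promoters of 3 members are shown because the list moved in 1 direction and the genes of this pathway are known to be driven by sterol-regulated and CCAAT-binding factors. Windows of 300 bases around the start (RefSeq, GRCm38.p6) were found for 18 of the 24 listed genes, in 21 windows. The letters CCAAT, on either strand, were in 17 of them (81.0%), against 37.4% of all 32851 windows. The sterol element TCACNCCAC, on either strand, was in the Hmgcs1 window alone (4.76%, against 1.24% of all). The 150 bases before the start are given 5′ to 3′ on the strand of the gene, with CCAAT, its complement ATTGG and the sterol element in capitals. The motifs do not overlap here. The positions are chr13:119690201-119690350 for Hmgcs1 (plus), chr8:122443423-122443572 for Mvd (minus) and chr13:8885456-8885605 for Idi1 (plus).
Hmgcs1: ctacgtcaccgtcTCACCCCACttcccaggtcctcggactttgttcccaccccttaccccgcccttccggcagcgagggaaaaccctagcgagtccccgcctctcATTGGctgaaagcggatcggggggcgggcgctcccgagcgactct
Mvd: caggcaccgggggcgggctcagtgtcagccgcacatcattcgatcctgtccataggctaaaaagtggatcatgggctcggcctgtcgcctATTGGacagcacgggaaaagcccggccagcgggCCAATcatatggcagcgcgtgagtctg
Idi1: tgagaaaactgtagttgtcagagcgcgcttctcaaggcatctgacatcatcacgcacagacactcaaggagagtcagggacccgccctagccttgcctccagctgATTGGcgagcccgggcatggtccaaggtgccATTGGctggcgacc
The match of letters is a description of these windows. No binding was measured.

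Immediate early genes, which neurons switch on within minutes of activity, were lower. Of 24 tested members 23 were lower and 1 higher, with a median log2 fold of -0.35. Nr4a3 and Egr1 fell and were the only called members (8.33% of the list, beside 0.387% of all tested genes). An unadjusted p under 0.05 was found for 13 (5.33% of all tested genes), and in 9 the groups did not overlap (4.01% of all). The list summed to 570 to 664 FPKM in WT and 404 to 510 FPKM in BgnKO. Egr1, a zinc finger factor, had 87.9, 103, 111 and 111 FPKM in WT and 47.3, 48.6, 66.1 and 50.9 FPKM in BgnKO (log2 fold -0.95, SE 0.19, limma adjusted p = 0.0471). Nr4a3, an orphan nuclear receptor, had 22.6, 31.2, 31.2 and 30.4 FPKM in WT and 17.9, 19.6, 21.5 and 19.2 FPKM in BgnKO (log2 fold -0.53, SE 0.10, limma adjusted p = 0.0358). Neither gene's groups overlapped, though Nr4a3 in WT replicate 1 lay near the BgnKO range. Egr1 lost its call in 14 of 21 other settings and Nr4a3 in 9, with adjusted p of at most 0.168 for Egr1 and 0.140 for Nr4a3. These settings include leaving out any 1 water library, except BgnKO replicate 3 for Egr1 and WT replicate 1 for Nr4a3. Egr4 had 16.7, 14.1, 15.9 and 18.6 FPKM in WT and 12.1, 7.56, 10.4 and 8.53 FPKM in BgnKO (log2 fold -0.72, SE 0.16, limma adjusted p = 0.0764), and Junb had 44, 55.4, 44.7 and 56.1 FPKM in WT and 26.4, 25.4, 37.8 and 36.9 FPKM in BgnKO (log2 fold -0.66, SE 0.15, limma adjusted p = 0.111). Fos itself had 8.96, 11.2, 9.04 and 13.9 FPKM in WT and 2.65, 2.66, 7.87 and 6.79 FPKM in BgnKO (log2 fold -1.08, SE 0.32, limma adjusted p = 0.30), with no overlap of the groups. Of the 24 genes, 18 were lower on fructose as well (median -0.27). Since this list was drawn up with earlier results of these data known, its direction is not independent evidence. Excitatory neuron markers were also mostly lower, 9 of 10, with a median of -0.16, and their summed FPKM was 4045 to 5629 in WT and 3678 to 4997 in BgnKO. None of the 10 was at 0. Their part in the lower immediate early genes was not tested.

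**Figure D4:**
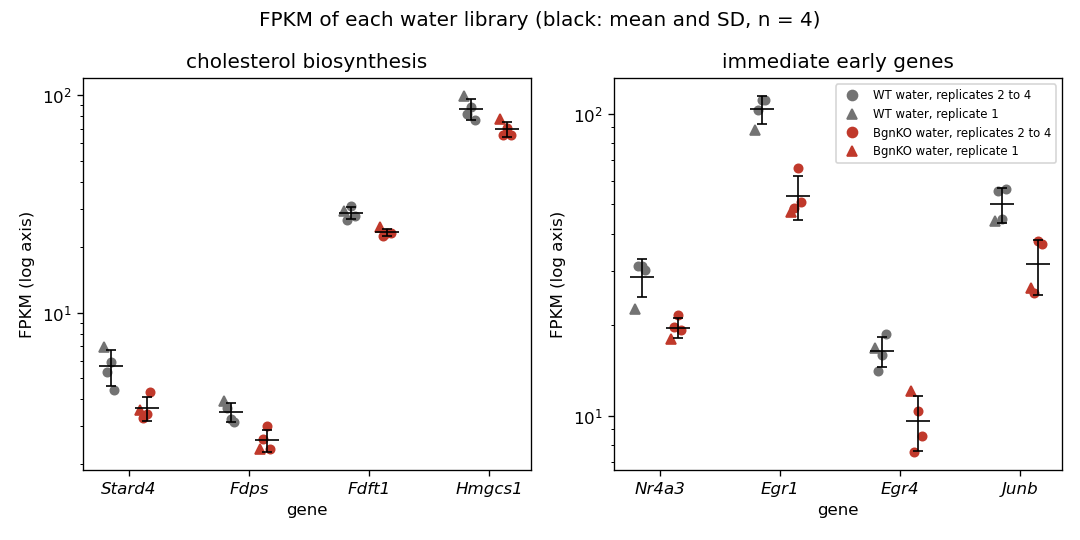
FPKM of 4 cholesterol synthesis genes (left) and 4 immediate early genes (right) in each water library, on log axes, with black lines for the mean and SD (n = 4). Grey marks are WT and red marks BgnKO libraries, with triangles for replicate 1. Means of BgnKO lie below those of WT for all 8 genes, of which only Nr4a3 and Egr1 were called.

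The delayed activity-induced genes followed with smaller differences, 21 lower and 6 higher of 27, and a median of -0.15. Plk3, a polo-like kinase, was the only member called (3.70% of the list, beside 0.387% of all tested genes). It had 3.99, 4.2, 4.39 and 4.42 FPKM in WT and 2.92, 3.17, 3.25 and 2.74 FPKM in BgnKO (log2 fold -0.39, SE 0.07, limma adjusted p = 0.0316). It lost its call in 8 of 20 other settings, 7 of which each left out 1 library. Per1, a circadian clock gene that activity also induces, had 20.2, 21.2, 27.3 and 27.9 FPKM in WT and 16.4, 17.4, 15.8 and 17.5 FPKM in BgnKO (log2 fold -0.49, SE 0.16, limma adjusted p = 0.439).

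Markers of the meninges and their fibroblasts were all higher. All 18 were tested, and all had a positive log2 fold, with a median of 0.43. None was called, and 2 had an unadjusted p under 0.05, beside 5.33% of all tested genes. Asgr1 had 1.13, 0.427, 0.863 and 0.461 FPKM in WT and 1.26, 1.46, 1.7 and 2.07 FPKM in BgnKO (log2 fold 0.62, SE 0.28, limma adjusted p = 0.903), and the transcription factor Foxc1 had 2.82, 1.8, 2.7 and 2.81 FPKM in WT and 3.53, 3.54, 2.96 and 4.19 FPKM in BgnKO (log2 fold 0.37, SE 0.17, limma adjusted p = 0.93). The groups did not overlap for either. Summed over the list, FPKM was 147 to 307 in WT and 270 to 335 in BgnKO, and none was at 0. Pericytes and smooth muscle had 8 of 10 higher (median 0.37), which became -0.01 with scores of choroid plexus, meninges and astrocyte markers as covariates.

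**Figure D5:**
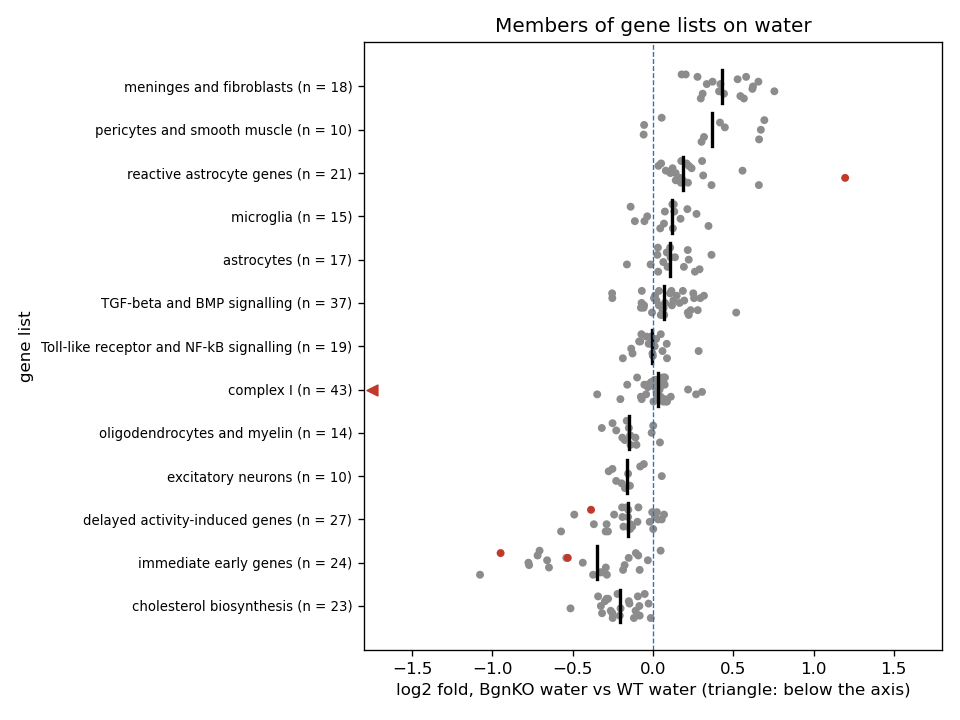
Each point is the log2 fold of 1 tested member of a gene list in BgnKO against WT on water. Black lines are list medians, red points are called genes, and the dashed line is the median of all tested genes. The left-pointing triangle is Ndufs5, beyond the axis. Medians run from -0.35 for immediate early genes to 0.43 for meninges and fibroblasts.

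Glial lists had small medians. Of 21 tested reactive astrocyte genes all were higher, with a median of 0.19. The Serpina3 entry was the only one called (4.76% of the list, beside 0.387% of all tested genes). Gfap, the astrocyte intermediate filament, had 76.3, 101, 106 and 94.4 FPKM in WT and 112, 117, 104 and 156 FPKM in BgnKO (log2 fold 0.36, SE 0.15, limma adjusted p = 0.762). Astrocyte markers were higher in 15 of 17 (median 0.11) and microglia in 11 of 15 (0.12). In the other settings without marker scores the medians ran from -0.005 to 0.16 for astrocytes and from -0.03 to 0.18 for microglia. The mean log2(FPKM + 1) of the list exceeded the WT mean in 3 BgnKO libraries for astrocytes and in 2 for microglia. Oligodendrocyte and myelin genes were lower in 12 of 14 (-0.15). No astrocyte, microglia or oligodendrocyte marker was called, and 1 of them, an astrocyte marker, had an unadjusted p under 0.05. With the marker scores as covariates the reactive astrocyte median was 0.06, with Gfap in both this list and the astrocyte score. Choroid plexus markers were 7 higher and 7 lower (-0.03).

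The matrix and signalling partners of biglycan showed few differences. Of the 11 tested small leucine-rich proteoglycans, Bgn was the only one lower, and the other 10 were higher, with a list median of 0.20. With the marker scores as covariates the list median was -0.09. Dcn, Lum, Fmod, Ogn and Omd are among the meninges markers of those scores, and so are also counted in the meninges list above. No member was called in the limma fit, and 1 had an unadjusted p under 0.05, beside 5.33% of all tested genes. Decorin (Dcn), the closest relative of biglycan, had 44.3, 22.4, 44.2 and 47.3 FPKM in WT and 42.2, 49.5, 42.1 and 42.3 FPKM in BgnKO (log2 fold 0.20, SE 0.48, limma adjusted p = 1). Lumican (Lum) had 2.31, 1.95, 2.85 and 3.05 FPKM in WT and 3.74, 3.7, 3.22 and 4.19 FPKM in BgnKO (log2 fold 0.42, SE 0.27, limma adjusted p = 1), and fibromodulin (Fmod) had 7.2, 3.98, 14 and 14.6 FPKM in WT and 10.4, 21.8, 11.7 and 22.5 FPKM in BgnKO (log2 fold 0.76, SE 0.69, limma adjusted p = 1). The groups overlapped for Dcn and Fmod and did not for Lum. Fibrillar and network collagens had 6 higher and 6 lower.

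Genes of TGF-beta and BMP signalling were higher in 29 of 37 (median 0.07). With the marker scores as covariates the median was 0.008. None was called, and 4 of the 37 had an unadjusted p under 0.05, beside 5.33% of all tested genes. The 4 were Nog, an inhibitor of BMPs (log2 fold 0.26), the target Id2 (0.23) and the inhibitory Smad6 (0.29), all higher, and the ligand Tgfb2, lower. The groups did not overlap for Nog, Id2 and Tgfb2, which are 3 of the 37, beside 4.01% of all tested genes. Tgfb2 had 23.3, 30.6, 23.6 and 23 FPKM in WT and 21.2, 21, 22.6 and 18.5 FPKM in BgnKO (log2 fold -0.25, SE 0.09, limma adjusted p = 0.598), and the ligand Tgfb1 had 2.83, 3.6, 3.4 and 3.04 FPKM in WT and 2.72, 3.55, 2.89 and 4.44 FPKM in BgnKO (log2 fold 0.05, SE 0.17, limma adjusted p = 1). Toll-like receptor and NF-kB genes were 8 higher and 11 lower (median -0.003), with none called and 0 at an unadjusted p under 0.05. The receptors Tlr2 and Tlr4 were under the filter. Tlr2 had 0.463, 0.611, 0.299 and 0.468 FPKM in WT and 0.802, 0.546, 0.542 and 0.660 FPKM in BgnKO. Tlr4 lay between 0.297 and 0.357 FPKM in WT and between 0.267 and 0.493 FPKM in BgnKO. Both sets overlapped.

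Other genes chosen for their link to biglycan or to fructose were not called on water. P2rx7, an ATP-gated channel that biglycan can engage, had a log2 fold of 0.01, and the Wnt co-receptor Lrp6 0.05. Bdnf, a neurotrophin, had 12, 9.25, 11.5 and 11 FPKM in WT and 10.3, 7.54, 8.88 and 8.26 FPKM in BgnKO (log2 fold -0.29, SE 0.15, limma adjusted p = 1), with overlapping groups. Igf1r had a log2 fold of 0.09, the thioredoxin inhibitor Txnip -0.12, the fructose transporter Slc2a5 -0.13 and the stress-hormone target Fkbp5 0.08.

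The threshold itself separated close values. Trappc5, Egr1, Atp6v1g1 and Nrde2 were among the called genes that shared the highest adjusted p, 0.0471, and the first gene outside was Ccdc115 with 0.0551 and a log2 fold of -0.40. Of 32 genes with a log2 fold of at least 1 in size, 20 were not called, among them Bgn, Fos and several small RNAs such as Snora64. Ccl19, a chemokine, was such a gene, with 1.96, 0.409, 0.957 and 1.55 FPKM in WT and 2.69, 3.96, 3.93 and 7.86 FPKM in BgnKO (log2 fold 1.32, SE 0.44, limma adjusted p = 0.479).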

How the data were processed

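Total RNA of hippocampus was enriched for polyadenylated RNA, and libraries with fragments of 200 to 400 bp were read on an Illumina HiSeq 2500, with CASAVA 1.8.2 used to split samples, per the labels' protocols. TopHat, Bowtie, Cufflinks and Cuffdiff and the build mm10 are named in the submitters' processing notes. Their versions, strand setting and annotation are not given in the sources used here. The authors deposited FPKM per locus. The depth is therefore unknown. Loci of 1 name were summed, and the 12648 genes averaging 1 FPKM or more were tested on log2(FPKM + 1) by limma 3.58.1 under R 4.3.3, whose variance prior followed the mean (eBayes with trend), as 4 group means over 16 libraries and Benjamini-Hochberg adjustment at 0.05. Bgn was also tested by exact permutation. The script was tested on simulated data. Positions are from GENCODE vM21 and RefSeq GRCm38.p6.

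The members and gene lists were chosen with earlier results of these data known. Named are Bgn, every called gene with a standard symbol (values in every library for the 15 highest and 15 lowest folds), up to 4 members of a described list by smallest unadjusted p, genes fixed by name, and genes within 1 Mb of Bgn. Mvd and Idi1 are named for their promoters only, by the rule given there. Other genes named outside this rule (Ccdc115, Snora64 and Ccl19) were chosen after their values were seen. For 1 of these genes the values are not reported here. Lists are described by counts and medians only.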

Additional observations from a re-analysis of the deposited data

Results flagged for a closer look

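Among 84 named genes, 167 groups of 4 libraries were looked at, and in 11 (6.59%) 1 library lay apart from the other 3 by more than Dixon's limit for a gap over the range. Chance gives about 1 in 20 such groups. Bgn in BgnKO replicate 1 was 4.46 FPKM, against 7.19 to 7.60 in the others. Alad in BgnKO replicate 3 was 8.74 FPKM, against 12.3 to 12.9. Hyi in WT replicate 2 was 2.84 FPKM, against 2.36 to 2.40. Nr4a3 in WT replicate 1 was 22.6 FPKM, against 30.4 to 31.2. Foxc1 in WT replicate 2 was 1.80 FPKM, against 2.70 to 2.82.

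Dcn stood apart in replicate 2 of both groups, low in WT at 22.4 FPKM (others 44.2 to 47.3) and high in BgnKO at 49.5 FPKM (others 42.1 to 42.3). The complex I subunit Ndufc2 stood apart in replicate 1 of both, at 122.8 FPKM in WT (others 86.4 to 90.1) and 94.0 FPKM in BgnKO (others 67.6 to 71.2). Tgfb2 in WT replicate 2 was 30.6 FPKM, against 22.95 to 23.6. The entry of Gbp1 and Gbp2 in WT replicate 4 was 3.64 FPKM, against 1.41 to 1.67. Replicate 1 accounts for 4 of the 11.

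The limma interaction of genotype and drink was called for Camk2a, the alpha subunit of calcium/calmodulin-dependent kinase II (adjusted p = 2.98e-12), and rests on values of exactly 0 in 1 group, which can be failed estimates. It had 992, 1558, 1593 and 1346 FPKM in WT and 781, 991, 1203 and 1657 FPKM in BgnKO on water. On fructose it is listed at 0 in all 4 WT libraries and at 1013 to 1671 FPKM in the 4 BgnKO libraries.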

How the results depend on the processing

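All 49 called genes kept their sign in all 21 alternative settings that tested them, and 26 stayed called in every one, while 23 lost the call in at least 1. The number called was 49, with 22 higher and 27 lower. It was 26 (14 higher, 12 lower) with a filter of 5 FPKM, which tested 33 of the 49, 79 (37 and 42) with replicates 2 to 4 only, 126 (62 and 64) with a term for replicate 1, and 77 (33 and 44) with the marker scores as covariates, where 15 of the 49 were also called on fructose in place of 42. With the replicate number as a block it was 125 (61 and 64), and all 49 were among them. Same-number libraries had correlations of 0.69, 0.07, 0.12 and -0.04, so the numbers are not shown to pair the samples, and best matches agreed only for number 1. Leaving out 1 water library at a time gave 30 to 42 called, 9 to 15 higher and 19 to 27 lower. Higher genes numbered 14 without WT replicate 3 and 12 without BgnKO replicate 4. The fewest calls, 30, came without WT replicate 2 or without WT replicate 4. Without BgnKO replicate 2 it was 32 and without BgnKO replicate 3 it was 31. With replicates 2 to 4 only the interaction called 2 genes in place of 1. The Bgn difference of -9.27 FPKM was -10.5 FPKM with replicates 2 to 4 (exact p = 0.1, the smallest that 3 against 3 allow) and -11.3 to -6.50 FPKM with 1 library left out, with exact p = 0.0857 without any 1 BgnKO library. Its limma adjusted p was 0.370, and 0.0342 with the block, 0.0193 with a term for replicate 1, 0.0166 with replicates 2 to 4 and 0.0444 with the marker scores. Among single genes and lists 5596 values were counted as unchanged, 181 lost and 24 gained a call, and 25 list medians moved. Unchanged means that a gene kept its called or uncalled state, or that a list median moved by less than the SD of the BgnKO list scores. Uncalled genes and list medians could change sign and still be counted so. The cause of these shifts was not tested. Depth is unknown, so low genes carry more error than the text can state. The chromosome share was added after seeing the data.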
